A study of Mus musculus with 4 samples.

Results

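Among the cells dissociated from the oviduct and uterus of newborn mice, 350 of 26619 called barcodes (1.31%) were rich in haemoglobin RNA. A barcode is the tag of 1 droplet, and a called barcode is one the authors' software took for a cell. The 350 were chosen by their own counts: the 4 adult globin genes Hba-a1, Hba-a2, Hbb-bs and Hbb-bt had to give at least 20% of a barcode's UMIs (unique molecular identifiers, 1 per captured RNA molecule), and mitochondrial (mt-) genes at most 15%. No minimum of detected genes was set. The level of adult haemoglobin in them is therefore no finding.

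All 4 libraries came from wild-type, untreated CD1 (ICR) mice at postnatal day 3: 2 libraries of oviduct and 2 of uterus. Per the series' design, each library pooled 3 or 4 neonates, and both organs came from the same animals. CD1 is an outbred stock. The labels name mesenchymal and epithelial cells as the cell type, so blood cells are not what the libraries were prepared for. RNA was counted at the 3′ end of transcripts with 10x Genomics Chromium reagents after the tissue had been digested with enzymes.

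Red blood cells carry oxygen on haemoglobin, a tetramer of alpha and beta globin chains that each hold a haem group with iron. In mice the embryonic globins (Hba-x, Hbb-bh1 and Hbb-y) serve the first red cells of the yolk sac, and the definitive red cells made later in liver, spleen and marrow use the adult globins. A red cell precursor expels its nucleus and becomes a reticulocyte, which still holds RNA and clears its organelles and remaining RNA over days. RNA in a red cell without a nucleus is what was left from the precursor, since nothing new is transcribed.

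The adult alpha genes lie on chromosome 11 and the adult beta genes on chromosome 7 (build GRCm38, GENCODE M21), Hba-a1 at chr11:32283511-32284465, Hba-a2 at chr11:32296489-32297298, Hbb-bs at chr7:103826534-103828096 and Hbb-bt at chr7:103812524-103813996. The embryonic beta gene Hbb-y lies in the same cluster at chr7:103851749-103853216. To show the sequence around the start of the adult genes and an embryonic gene, the 150 bases before the RefSeq start (GRCm38.p6) are printed for 5 of the 9 globin genes that the RefSeq promoter table holds. GENCODE places each of these starts further upstream, so 150 of the 150 bases for Hba-a1 and Hbb-bs, 73 for Hbb-bt, 9 for Hbb-y and 3 for Hba-a2 lie inside the gene as given above. They are read 5′ to 3′ on the gene's own strand. Capitals mark, on either strand, the letters CACCC (the box that Klf1 and related factors bind), the letters CCAAT (a box of many promoters), the letters GATAA (the core of the GATA factor motif) and the letters TATAA (the TATA box).

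Hbb-bs, chr7:103827929-103828078, minus strand: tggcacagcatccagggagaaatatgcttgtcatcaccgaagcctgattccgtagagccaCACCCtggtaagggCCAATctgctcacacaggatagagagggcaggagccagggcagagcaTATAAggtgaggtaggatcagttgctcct
Hbb-bt, chr7:103813924-103814073, minus strand: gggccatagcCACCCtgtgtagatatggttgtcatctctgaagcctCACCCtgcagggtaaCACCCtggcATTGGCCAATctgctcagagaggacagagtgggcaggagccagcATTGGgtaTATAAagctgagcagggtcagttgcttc
Hbb-y, chr7:103853208-103853357, minus strand: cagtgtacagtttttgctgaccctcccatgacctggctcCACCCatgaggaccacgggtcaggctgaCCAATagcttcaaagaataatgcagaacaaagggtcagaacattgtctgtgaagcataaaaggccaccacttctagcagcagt
Hba-a1, chr11:32283522-32283671, plus strand: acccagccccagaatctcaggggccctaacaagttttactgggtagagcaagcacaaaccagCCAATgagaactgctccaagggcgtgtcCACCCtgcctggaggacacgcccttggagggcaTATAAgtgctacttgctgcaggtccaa
Hba-a2, chr11:32296342-32296491, plus strand: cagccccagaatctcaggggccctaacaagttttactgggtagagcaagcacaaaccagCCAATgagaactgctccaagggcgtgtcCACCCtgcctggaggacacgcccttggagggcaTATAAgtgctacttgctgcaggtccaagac

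The windows of Hba-a1 and Hba-a2 were the same in 147 of 153 aligned positions (96.1%). Hbb-bs and Hbb-bt shared 112 of 153 aligned positions (73.2%), and Hbb-bs and Hbb-y 82 of 163 (50.3%). The CACCC and CCAAT boxes occurred in all 5 windows, the TATAA letters in the 4 adult windows and not in that of Hbb-y, and the GATAA letters in none. Of all 32851 windows of this length in the table, 37.4% held the CACCC letters, 24.5% the CCAAT letters, 14.2% the TATAA letters and 13.4% the GATAA letters. Each is common, and the matches describe the letters alone.

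Haemoglobin-rich barcodes numbered 126 of 7808 called barcodes in oviduct replicate 1 (1.61%, exact 95% binomial interval 1.35 to 1.92%), 86 of 6773 in oviduct replicate 2 (1.27%, 1.02 to 1.57%), 95 of 5716 in uterus replicate 1 (1.66%, 1.35 to 2.03%) and 43 of 6322 in uterus replicate 2 (0.680%, 0.493 to 0.915%). Values given by library follow this order. Uterus replicate 2 had the lowest share, and the highest share was that of the other uterine library. The share was 1.44 ± 0.243% (SD, n = 2) in the oviduct and 1.17 ± 0.694% (SD, n = 2) in the uterus, and the organs overlapped (exact permutation test, two-sided, p = 1). With 2 libraries against 2, no such test can give a p below 0.33. Within replicate 1 the oviduct was lower by 0.0483 percentage points, and within replicate 2 it was higher by 0.590. Without uterus replicate 2 the sign turned, to -0.220 percentage points.

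These barcodes held far fewer genes, and less RNA, than the other called barcodes. Their median UMI count was 4563 and 5016 for the oviduct libraries, against 4007 and 4856 for those of the uterus (exact permutation test, two-sided, p = 0.667) and 9667 to 11974 in the other called barcodes. The median number of detected genes was 188 and 200 (oviduct) and 218 and 248 (uterus), against 2779 to 3343 in the other called barcodes. A filter at 500 genes, a usual step for tissue cells, would have kept 31 of the 350 (6, 14, 9 and 2 by library). Adult haemoglobin gave a median of 91.0, 89.1, 87.1 and 88.8% of a barcode's UMIs by library. Mitochondrial genes gave a median of 0.435 to 0.782% of all UMIs, against 4.21 to 5.20% in the other barcodes. The haemoglobin that the rule selects on fills most of the UMIs and so lowers this share, which the rule also capped. The mt- share of the RNA other than haemoglobin was not computed.

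**Figure D1:**
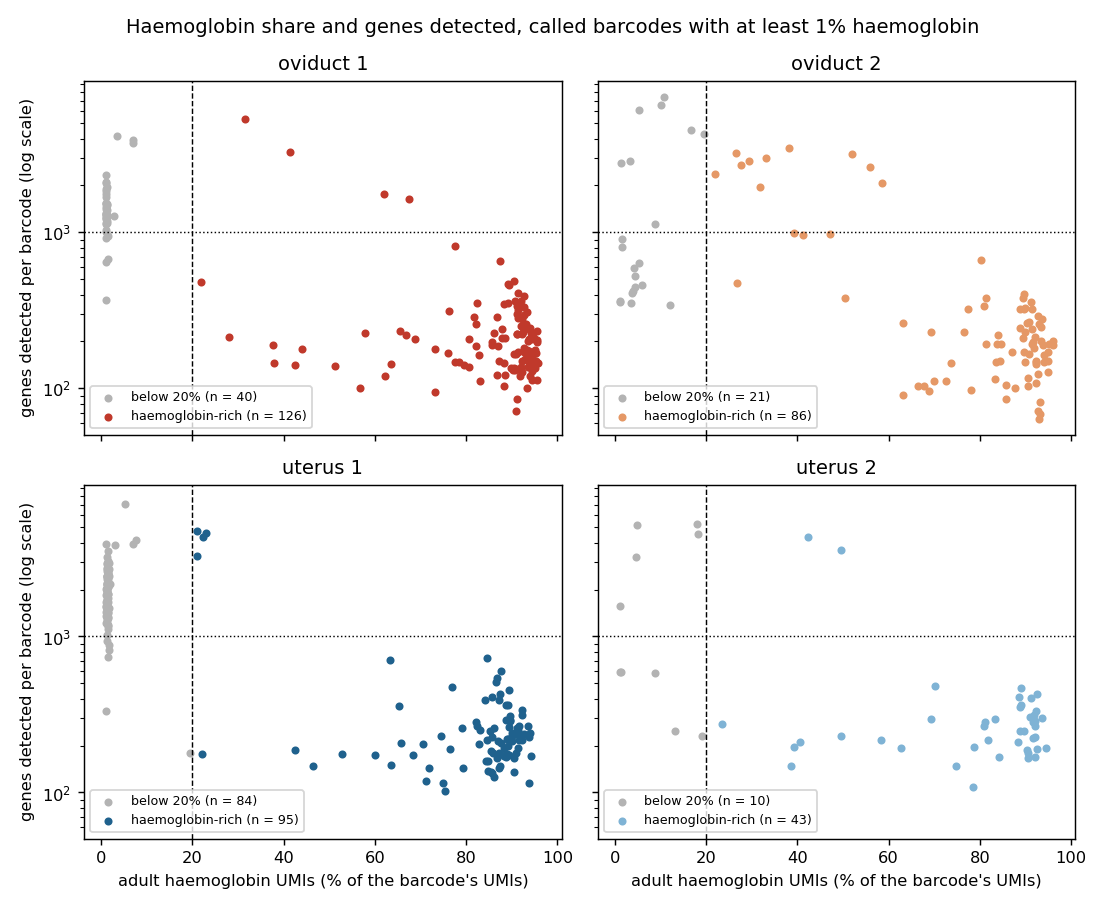
Each point is a called barcode with at least 1% haemoglobin and at most 15% mt- UMIs; x is the percent of its UMIs from the 4 adult globin genes, y the genes detected on a log scale, and the dashed and dotted lines mark 20% and 1000 genes. Most haemoglobin-rich barcodes (coloured) lie above 80% (259 of 350) with fewer than 500 genes, and 20 in all lie above 1000 genes, each with a lower haemoglobin share.

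Of the 350, 147 had a haemoglobin share of at least 90%, 112 of 80 to 90%, 58 of 50 to 80% and 33 of 20 to 50%. In those of at least 90% the median was 6840 UMIs and 194 genes, and in those of 20 to 50% it was 3844 UMIs and 977 genes. Those of 50 to 80% were the shallowest, with a median of 1108 UMIs and 184 genes. At the edge of the rule, the lowest shares inside were 21.9, 21.9, 21.0 and 23.5% by library, and the highest outside were 7.01, 19.6, 19.4 and 19.2%. The barcodes just inside were of both kinds, sparse ones such as 567 UMIs and 176 genes at 22.1%, and rich ones such as 28492 UMIs and 4740 genes at 21.0%, both in uterus replicate 1.

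A group of 20 barcodes (4, 10, 4 and 2 by library) had at least 1000 genes beside a haemoglobin share of at least 20%. They held 42.1, 65.8, 57.1 and 54.4% of all RNA of the haemoglobin-rich barcodes other than haemoglobin and mt- RNA. The 8 mesenchymal markers summed to 17.6 to 64.2 per 10000 UMIs in these 20, to 1.65 to 2.60 in the barcodes under 500 genes, and to 44.0 to 89.6 in the other called barcodes. These sums are per all UMIs, haemoglobin included. Whether each of these 20 held 1 cell or more was not tested. Values that rest on RNA other than haemoglobin are given with them and, where it matters, without them.

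Marker lists of other cells were low per UMI in the sparse barcodes. Haemoglobin, on which the rule selects, counts among these UMIs and lowers every such sum. Under 500 genes in oviduct replicate 1, Malat1 gave 5.95 per 10000 of all UMIs but 70.1 per 10000 without haemoglobin and mt- RNA. In the other called barcodes of that library these values were 179.1 and 187.5. The marker sums were not computed on the second scale. Under 500 genes, the markers of smooth muscle summed to 0.384 to 1.21 per 10000 UMIs (24.0 to 24.8 in the other called barcodes), epithelium to 0.0782 to 0.307 (2.08 to 6.25), mesothelium to 0.0867 to 0.203 (2.37 to 7.65) and blood endothelium to 0.0434 to 0.104 (2.60 to 3.50). All 350 barcodes together held 2 UMIs of 7 myeloid markers, 4 of 6 platelet markers, 2 of 6 neutrophil markers and 4 of 6 lymphoid markers. Csf1r, C1qa, C1qb, Cd74 and Fcer1g of the myeloid list, Ppbp, Gp9, Gp1bb and Treml1 of the platelet list, S100a8, Retnlg, Camp and Ngp of the neutrophil list, and Cd3d, Cd79b, Nkg7 and Trbc2 of the lymphoid list were at 0. If all collagen RNA (Col1a1, Col1a2 and Col3a1) in them came from free RNA, at most 5.08, 24.0, 61.1 and 18.4% of their UMIs could be free RNA, and 3.68, 3.56, 8.68 and 6.34% under 500 genes.

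Haemoglobin RNA also lay outside these barcodes. They held 97.3 and 93.2% of the adult globin UMIs of all called barcodes for the oviduct, and 89.9 and 84.5% for the uterus. In the other called barcodes adult globin made up 0.0158 to 0.0744% of the UMIs, and in the uncalled barcodes of at most 100 UMIs 0.659, 0.397, 1.34 and 0.632% by library. A Hbb-bs UMI was seen in 23.8 to 39.2% of the other called barcodes, so a single globin UMI does not mark a red cell here. No barcode sequence was haemoglobin-rich in more than 1 library, and 8 to 15 called sequences were shared per pair of libraries. For 3 of the 350, the sequence was also a called barcode in another library.

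Adult globin made up 1705077 of the 2127304 UMIs in the haemoglobin-rich barcodes. Hbb-bs, the major adult beta gene, led with 367752 and 254994 UMIs (oviduct 1 and 2) and 239948 and 136133 UMIs (uterus 1 and 2). Hba-a1 followed with 237154, 142725, 133493 and 78052 in the same order. Both genes were detected in every one of the 350. Hbb-bt, the minor beta gene, gave 35838, 28586, 24773 and 14362 UMIs, and Hba-a2 gave 4481, 2963, 2509 and 1314. The order Hbb-bs, Hba-a1, Hbb-bt, Hba-a2 was the same in all 4 libraries.

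The balance of the chains was close between libraries. Alpha globin made up 37.5 and 33.9% of adult globin UMIs for the oviduct, against 33.9 and 34.5% for the uterus (mean 35.7 ± 2.48% against 34.2 ± 0.416%, SD, n = 2; exact permutation test, two-sided, p = 1). Hbb-bt made up 8.88 and 10.1% of beta globin UMIs for the oviduct, against 9.36 and 9.54% for the uterus, with both uterine values between the oviduct values (exact permutation test, two-sided, p = 1). Hba-a2 made up 1.854 and 2.034% of alpha globin UMIs for the oviduct, against 1.845 and 1.656% for the uterus, without overlap, which in this design gives p = 0.33, the smallest it allows (exact permutation test, two-sided). The organs overlapped with haemoglobin of at least 50% (1.842 and 2.054 against 1.861 and 1.59%), with mt- of at most 5% (1.842 and 2.041 against 1.866 and 1.67%) and under 1000 genes (1.826 and 1.954 against 1.858 and 1.583%).

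Similar gene copies limit these shares. The longest protein-coding transcripts of Hba-a1 and Hba-a2 were the same in 283 of 316 aligned positions over their last 300 bases (89.6%). Those of Hbb-bs and Hbb-bt were the same in 261 of 303 (86.1%). Aligned positions include gaps, where only 1 of the 2 transcripts has a base, so these percentages understate the match of paired bases. Over the whole Hba-a1 and Hba-a2 transcripts, of 699 and 554 bases, 537 bases were the same. How reads that match both copies were treated is not given in the sources used here, so the level of Hba-a2 against Hba-a1 is uncertain. The beta globin locus also differs between mouse stocks, and in an outbred stock reads of any version are counted under the genes of the reference; the version carried by these mice was not analysed here.

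Embryonic globins were almost absent. Hbb-y, the embryonic beta chain, had 1 UMI in oviduct replicate 1, 1 in uterus replicate 2 and 0 in the other 2 libraries, against 1705077 adult globin UMIs in all. Hba-x, Hbb-bh1 and Hbb-bh2 had 0 UMIs in all 350 barcodes. A count of 0 allows up to 4.65, 6.99, 7.49 and 13.1 UMIs per 1000000 adult globin UMIs by library (3 counts), a limit that covers counting error only. The single Hba-x UMI of the called barcodes lay in another barcode of uterus replicate 2. The summed embryonic level was 1.55, 0, 0 and 4.35 per 1000000 adult globin UMIs and overlapped between the organs (exact permutation test, two-sided, p = 1).

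The theta genes Hbq1a and Hbq1b, alpha-like genes of the same cluster with no settled role, were low but present. Hbq1b had 33, 11, 10 and 6 UMIs in 14, 7, 8 and 4 barcodes, and Hbq1a had 7, 2, 6 and 1. Over the 4 libraries that was 35.2 Hbq1b and 9.38 Hbq1a UMIs per 1000000 adult globin UMIs.

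For all genes other than the adult globin and mt- genes, levels are UMIs per 1000000 UMIs of the remaining RNA, summed over the barcodes of a library. Of 18807 genes, 169 (0.899%) were more than 2-fold higher in the haemoglobin-rich barcodes than in the other called barcodes in all 4 libraries, and 6467 (34.4%) were more than 2-fold lower in all 4. Most of the latter could not have been seen at this depth: with members held at 3 counts or more, 7 of the 1172 genes deep enough (0.597%) were lower. Since the same cells were chosen by their RNA, these counts describe them and test nothing. The median gene stood at 0.206 times its level in the other called barcodes, a value that genes at 0 pull down.

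Haem synthesis was led by Alas2, which makes the first intermediate of haem in red cell precursors. Alas2 had 1039, 648, 656 and 386 UMIs, or 10268, 4961, 5746 and 7257 per 1000000, and was seen in 76.7 to 86.3% of the haemoglobin-rich barcodes. In all 26269 other called barcodes together it had 191 UMIs, a level of 0.249 to 0.914 per 1000000, so that no library overlapped. Fech, the enzyme that puts iron into the ring, stood at 1592 to 2817 against 20.4 to 21.9 per 1000000, and Glrx5, which serves the iron-sulphur clusters that this pathway needs, at 771 to 1393 against 102 to 113. In all, 4 of 11 haem genes were more than 2-fold higher in all libraries.

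Of 9 iron genes, 3 were more than 2-fold higher in all libraries, and 3 (Slc11a2, Slc40a1 and Hfe) were at 0, where the depth could not show a lower level. Slc25a37 (mitoferrin-1), which brings iron into mitochondria, stood at 1523 to 2401 against 11.8 to 13.6 per 1000000. The ferritin genes Ftl1 and Fth1, which store iron, stood at 10380 to 16948 against 1717 to 2118 and at 5933 to 8450 against 1543 to 2186. Tfrc, the transferrin receptor that precursors and young reticulocytes use to take up iron, was rare: 16, 11, 1 and 1 UMIs by library. That was 158, 84.2, 8.76 and 18.8 per 1000000, against 13.6 to 16.3 in the other called barcodes, so that it was higher in both oviduct libraries and near the other barcodes in the uterine ones.

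Membrane genes were higher in 10 of 22. Slc4a1 (band 3, the anion exchanger) had 76, 86, 35 and 27 UMIs, against 44 in all the other called barcodes. Epb41 (protein 4.1 of the membrane skeleton) was more even, in 51.6 to 60.5% of the barcodes, at 1335 to 2075 against 40.2 to 56.7 per 1000000. Mpp1, a scaffold protein of the membrane skeleton, stood at 298 to 553 against 28.8 to 35.3. Rhd and Tspan33, with 42 and 48 UMIs over all libraries, were also higher in each library. Sptb, Epb42 and Dmtn count among the 10 as well, but had only 19, 18 and 7 UMIs over all libraries. That is under the 20 UMIs set for named genes, so their ratios in single libraries rest on very few UMIs. Slc4a1 was seen in 14.7 to 24.4% of the barcodes, and the tenth of the barcodes with the most UMIs of the gene held 70.4 to 90.8% of them.

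Genes of late maturation were higher in 17 of 24. Bpgm, which makes the 2,3-bisphosphoglycerate that loosens oxygen from haemoglobin, had 720, 601, 541 and 293 UMIs and stood at 4601 to 7115 against 12.5 to 14.2 per 1000000. Mkrn1, a ubiquitin ligase gene, stood at 6025 to 9191 against 30.4 to 36.6. Ubb, a ubiquitin gene, stood at 6167 to 10466 against 1896 to 2456. Also higher in all libraries were Bnip3l, the receptor by which reticulocytes clear mitochondria (14.4 to 24.4 times), the autophagy genes Map1lc3b (6.46 to 10.7 times) and Gabarapl2 (14.7 to 23.5 times), and the ubiquitin-conjugating genes Ube2l6 (42.7 to 98.6 times) and Ube2o (9.41 to 18.9 times).

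Genes of red cell metabolism and protection from oxidation were higher in 6 of 12. Gpx1, which reduces peroxides, had 1181, 849, 667 and 352 UMIs and stood at 5842 to 11671 against 194 to 217 per 1000000. Prdx2, an abundant peroxiredoxin of red cells, stood at 3653 to 6035 against 575 to 672, and Blvrb, a biliverdin reductase, at 1025 to 1542 against 103 to 112. Car2 (carbonic anhydrase 2) stood at 447 to 1136 against 8.63 to 16.8. Car1 and Pklr were at 0.

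**Figure D2:**
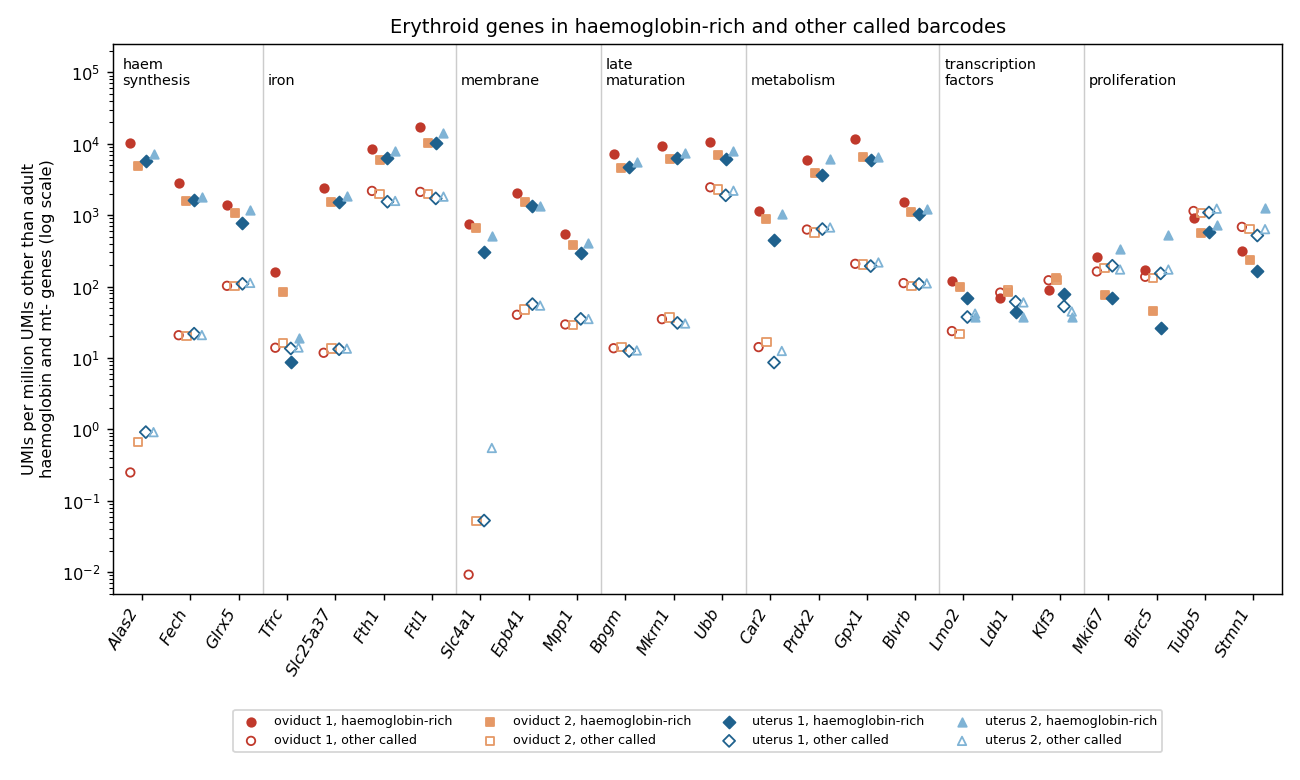
Levels of the named genes of each list, in UMIs per 1000000 UMIs other than adult haemoglobin and mt- genes (log scale), with 1 symbol per library, filled for the haemoglobin-rich barcodes and open for the other called barcodes. Filled symbols lie above open ones in all 4 libraries for the haem, membrane, late maturation and metabolism genes shown, such as Alas2 at 4961 to 10268 against 0.249 to 0.914, and both ranges overlap for Tfrc, Klf3, Lmo2, Ldb1, Mki67, Birc5 and Stmn1.

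Erythroid transcription factor genes were too rare to compare library by library. Gata1, the master regulator of the lineage, had 2 UMIs in the 350 barcodes, Klf1, the activator of adult beta globin, 3, Nfe2 3 and Tal1 4, while Gfi1b, Ikzf1 and Myb had 0. As a mean over libraries, that was 4.94 per 1000000 for Gata1, 6.30 for Klf1 and 6.86 for Nfe2, against at most 0.152, 0.669 and 0.284 in the other called barcodes. Both Gata1 UMIs lay in oviduct replicate 1, and all of Klf1 and Nfe2 in the oviduct libraries. None of the 14 genes tested was more than 2-fold higher in all 4 libraries, which so few UMIs could hardly reach, and none was deep enough to be seen lower. The most abundant of the list, Klf3, Lmo2 and Ldb1, had 37, 35 and 25 UMIs. None of 14 genes of progenitors and proliferation was more than 2-fold higher in all libraries. Of the 7 deep enough, 1 was lower in all, Hist1h1b, a linker histone gene made in dividing cells. Mki67, a marker of dividing cells, had 26, 10, 8 and 18 UMIs (0.358 to 1.95 times the other called barcodes), Birc5 17, 6, 3 and 28, and Stmn1 32, 31, 19 and 67. Tubb5, the most abundant of this list, stood at 559 to 909 against 1066 to 1233. The median ratio of a list's genes was 2.58 for haem, 1.09 for iron, 8.81 for membrane, 15.9 for late maturation, 3.57 for metabolism, 0.865 for transcription factors and 0.422 for proliferation, beside the 0.206 of all genes. In the barcodes with at least 50% haemoglobin Mki67 stood at 122 to 146 per 1000000 in place of 70.1 to 338 in all, and Birc5 at 0 to 122 in place of 26.3 to 526.

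Other genes outside these lists had the largest ratios by the rule for named genes. Rec114, known from meiotic recombination, had 157 UMIs, at 146 to 672 against 0.175 to 0.316 per 1000000. March2, a ubiquitin ligase gene, had 742 UMIs, at 1539 to 2629 against 37.1 to 44.0. Tspo2, a translocator protein of the red cell lineage, had 46 UMIs, at 61.3 to 178 against 0.0703 to 0.284. Gda, Ctse, Abcb4, Dhrs11, Fam210b and E2f2 had 45, 35, 34, 43, 86 and 107 UMIs and stood at 28.5 times or more the other called barcodes in every library.

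Malat1, a long non-coding RNA of the nucleus, was low in the sparse barcodes. Per 10000 UMIs of the remaining RNA it gave 138.7, 197.1, 115.7 and 61.9 by library in all haemoglobin-rich barcodes, against 187.5, 189, 142 and 124.7 in the other called ones. In the barcodes under 500 genes it gave 70.1, 69.4, 25.6 and 21.0. Gm42418, a gene that overlaps ribosomal RNA, made up 13.4, 10.6, 10.8 and 10.5% of the remaining RNA, against 1.79 to 2.79%. Ribosomal protein genes made up 16.9 to 23.9% of it, against 25.9 to 32.4%.

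The counted shares of the 2 minor globins varied together from barcode to barcode. How reads that match both Hba-a1 and Hba-a2 were treated is not known, which limits the Hba-a2 share here as above. Among the 280 barcodes with at least 50% haemoglobin and at least 500 adult beta globin UMIs (103, 67, 78 and 32 by library), Hbb-bt ran from 0.585 to 16.2% of beta globin in oviduct replicate 1, from 0.909 to 16.3% in oviduct replicate 2, from 0.468 to 15% in uterus replicate 1 and from 0.790 to 14.2% in uterus replicate 2. The medians were 7.66, 9.47, 9.12 and 7.81%. The SD between barcodes was 3.92, 4.02, 4.22 and 3.83 percentage points, where counting alone would give 0.462, 0.542, 0.516 and 0.453. In the free RNA of uncalled barcodes Hbb-bt was 8.07, 8.64, 9.95 and 8.67% of beta globin, near the middle of these ranges.

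Hba-a2 followed the same order. Its share of alpha globin had a median of 1.16 to 1.59% and correlated with the Hbb-bt share with Spearman's rho of 0.80, 0.75, 0.76 and 0.75 over the barcodes of each library. Both shares also rose with the barcode's UMI count, with rho of 0.75, 0.67, 0.59 and 0.60 for Hbb-bt and of 0.65, 0.51, 0.58 and 0.50 for Hba-a2. The alpha share as a whole did not follow Hbb-bt in the same direction (rho -0.32, -0.17, -0.38 and -0.023), nor did mt- RNA (-0.32, -0.30, -0.25 and -0.12). These are descriptions over cells of 1 library that share their pool of animals and their sequencing, and the rho values carry no test.

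**Figure D3:**
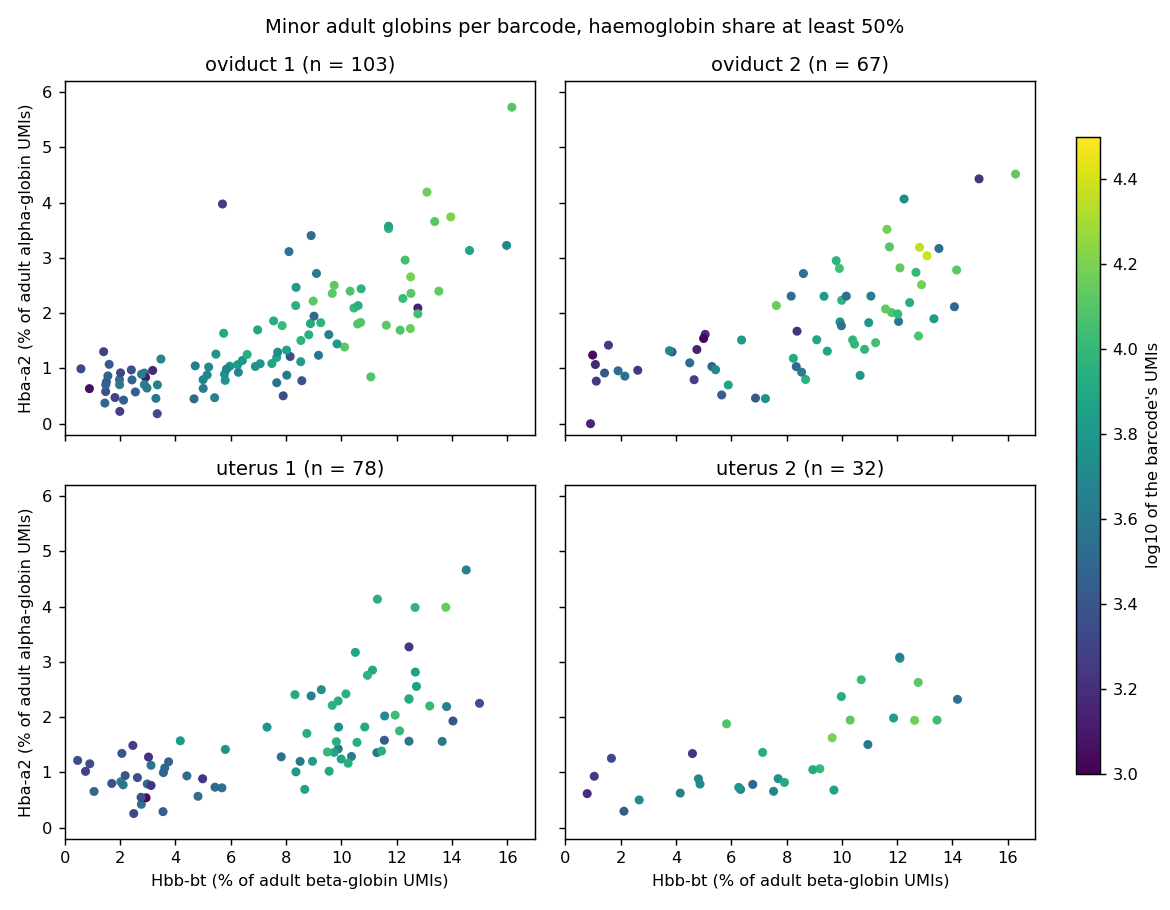
Each point is a barcode with at least 50% haemoglobin and 500 beta globin UMIs; x is the Hbb-bt share of adult beta globin UMIs, y the Hba-a2 share of adult alpha globin UMIs, both in percent, and the colour is the log10 of its UMIs. In each of the 4 libraries (n = 103, 67, 78 and 32) barcodes with a higher Hbb-bt share had a higher counted Hba-a2 share and were mostly deeper.

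Bpgm, Gpx1 and Mkrn1 per UMI ranked with the Hbb-bt share as well. The rho values by library were 0.74, 0.66, 0.79 and 0.72 for Bpgm, 0.82, 0.69, 0.74 and 0.72 for Gpx1 and 0.72, 0.51, 0.66 and 0.83 for Mkrn1. For Alas2 they were 0.24, 0.13, 0.23 and 0.11. Alas2 thus followed the Hbb-bt share less closely than Bpgm, Gpx1 and Mkrn1 in each of the 4 libraries.

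Each library's barcodes were then split into 3 groups of near-equal size by their Hbb-bt share, and the high group was set beside the low group. The high groups began at 9.02, 11.1, 10.5 and 10.3% Hbb-bt and the low groups ended at 5.42, 7.23, 4.82 and 6.27%. Of 649 genes with at least 20 UMIs, 124 (19.1%) were more than 2-fold higher in the high group in all 4 libraries and 0 (0%) were more than 2-fold higher in the low group. Many of the 124 had no UMI in some low group, and with the low group held at 3 counts or more, a choice made after the values were seen, 38 (5.86%) were higher. The split was chosen after these values were seen, so no test is given. The groups differed in depth: the median was 11658, 11538, 7876 and 9994 UMIs in the high groups and 3017, 2533, 2634 and 4404 in the low ones. With barcodes of 3000 to 10000 UMIs only, split anew and called the narrower split here, the gap in depth was smaller but the high groups were still deeper in all 4 libraries. Their median was 6840, 6085, 7876 and 5690 UMIs by library, against 4366, 4527, 3622 and 4854 in the low groups, so depth was not matched and its part in the differences was not tested. In this split 33 of 269 genes (12.3%) were more than 2-fold higher in the high group in all 4 libraries, 15 (5.58%) with the low group held at 3 counts, and again 0 in the low group.

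With the low group held at 3 counts, the genes that were high in the high-Hbb-bt barcodes included 8 of 18 late maturation genes, such as Mkrn1, Ubb and Bnip3l, 5 of 7 metabolism genes, among them Gpx1, Blvrb, Prdx2 and Car2, 2 of 8 membrane genes, 1 of 5 haem genes (Glrx5) and 1 of 3 iron genes (Slc25a37), but 0 of 79 ribosomal protein genes. In the narrower split they were 2 of 15, 3 of 7, 0 of 5, 1 of 4, 0 of 3 and 0 of 74. The share of all genes tested was 5.86% and 5.58%. A gene was tested from 20 UMIs on, which a gene high in 1 group reaches more easily, so these counts are no support of their own.

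Gpx1 lay far apart between the groups. It stood at 21.4 to 26.3 per 10000 UMIs in the high groups and at 0 to 4.18 in the low groups, with 2165 and 23 UMIs over the 4 libraries. In the narrower split it stood at 17.7 to 25.3 against 0 to 6.63. No library's high group overlapped any low group in either split.

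Bpgm stood at 14.2 to 18.0 per 10000 UMIs against 0.402 to 8.15, and in the narrower split at 11.5 to 22.6 against 0.299 to 4.78. Glrx5 stood at 3.23 to 3.76 against 0 to 0.418, and in the narrower split at 1.43 to 4.08 against 0 to 1.19. Slc4a1 stood at 1.26 to 3.21 against 0 to 0.209, with 165 UMIs in the high and 1 in the low groups, and in the narrower split at 0.953 to 2.23 against 0 to 0.796. The values did not overlap for any of these 3 genes in either split, but Bpgm was not 2-fold higher in uterus replicate 2 in the full split (1.88-fold). In the narrower split Slc4a1 was not 2-fold higher in all libraries, with or without the low group held at 3 counts (lowest ratio 1.58).

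Mkrn1, Prdx2 and Fech also lay higher in the high groups. Mkrn1 stood at 16.4 to 21.3 against 2.68 to 7.32, Prdx2 at 12.1 to 13.9 against 1.88 to 6.27 and Fech at 4.73 to 5.27 against 1.05 to 2.74 per 10000 UMIs. Alas2 stood at 12.8 to 15.6 against 9.91 to 15.5, so its groups overlapped. Ftl1 was lower in the high group in all 4 libraries, at 20.5 to 24.7 against 24.3 to 33.7. So were the ribosomal protein gene Rpl41, at 7.38 to 13.1 against 15.7 to 18.5, and Tpt1, at 10.2 to 22.7 against 17.2 to 25.1. In the narrower split Ftl1 and Tpt1 were again lower in all 4, and Rpl41 in 3 of 4. Of all genes tested, 19 of 649 (2.93%) were lower in the high group by any amount in all 4 libraries in the full split and 23 of 269 (8.55%) in the narrower one. Of the ribosomal protein genes these were 1 of 79 and 11 of 74.

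**Figure D4:**
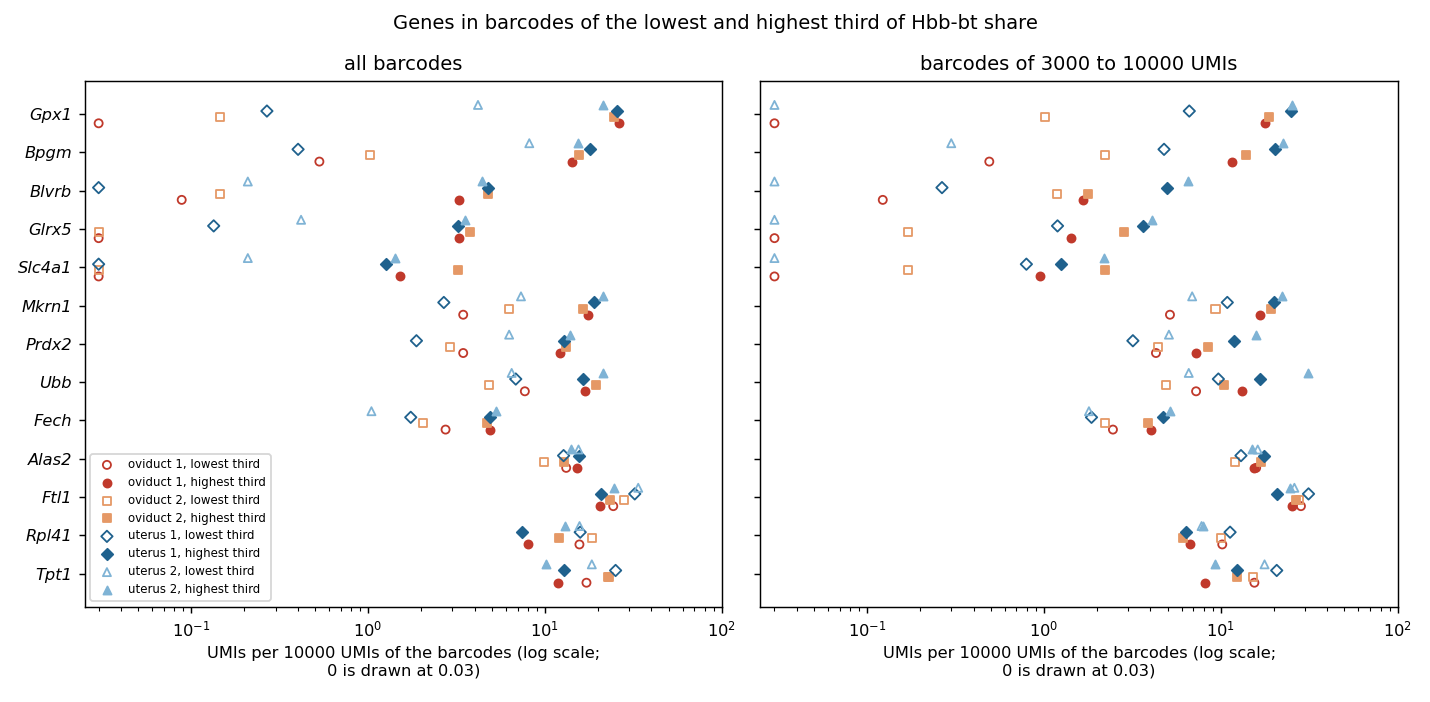
Levels in UMIs per 10000 UMIs (log scale) in the low (open) and high (filled) group by Hbb-bt share, with 1 symbol per library, for all 280 barcodes on the left and for barcodes of 3000 to 10000 UMIs on the right. Gpx1 and Bpgm lie apart in both panels, Alas2 overlaps, and Ftl1 and Tpt1 lie lower in the high group in all 4 libraries.

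The organs were compared over the 4 libraries by summing each library's haemoglobin-rich barcodes, without the adult globin and mt- genes. Of 1418 genes, 3 (0.212%; 2 or 0.141% higher in the oviduct, 1 or 0.0705% higher in the uterus) differed at a Benjamini-Hochberg adjusted p under 0.05 in edgeR's quasi-likelihood test, and 99 at an unadjusted p under 0.05. DESeq2 called 1 of 12396 (0.00807%), Tmcc2, higher in the oviduct. Tmcc2, a gene for a transmembrane coiled-coil protein at chr1:132356315-132391281, had 93 and 69 UMIs in oviduct libraries against 7 and 2 in uterine libraries (log2 fold change 3.85, SE 0.55, adjusted p = 0.0285). Itih5, which codes for an inter-alpha-trypsin inhibitor heavy chain, had 24 and 32 against 1 and 1 (log2 fold change 4.28, adjusted p = 0.0285), and Fn1 (fibronectin) had 4 and 14 against 73 and 37 (log2 fold change -3.01, adjusted p = 0.0451). No gene of the erythroid lists was called. With the replicate number as a block 10 genes were called, and with the numbers crossed edgeR called 0 (158 at an unadjusted p under 0.05). The organs came from the same animals, but which number is which pool is not given in the sources used here. Without oviduct replicate 2 edgeR called 0 (112 at an unadjusted p under 0.05), the adjusted p of these 3 being 0.603 to 0.628.

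The 20 barcodes from 1000 genes held most of the UMIs of Itih5 and Fn1. Under 1000 genes Itih5 had 5, 0, 0 and 0 UMIs and Fn1 4, 1, 12 and 11. In the other called barcodes Itih5 stood at 2.65 and 2.85 per 10000 UMIs for the oviduct, against 0.910 and 0.961 for the uterus, and Fn1 at 1.56 and 1.57 against 6.32 and 5.31, the same directions. Fn1 was still called under 1000 genes (log2 fold change -2.69, edgeR adjusted p = 0.00314), but in none of the 4 fits that left out 1 library (edgeR adjusted p = 0.0599 to 0.459). It stood there at 0.276 and 0.477 per 10000 UMIs in the uterine libraries, where free RNA could give up to 0.312 and 0.230. Of Tmcc2, 92, 63, 7 and 2 UMIs lay under 1000 genes, and it stood at only 0.0392 to 0.0467 per 10000 UMIs in the other called barcodes.

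With haemoglobin at 50% or more, 18 of 525 genes (3.43%) passed, 15 (2.86%) with more in the oviduct and 3 (0.571%) with more in the uterus. With the barcodes under 1000 genes, a choice made after the values were seen (122, 76, 91 and 41 barcodes), 50 of 423 (11.8%) passed, 20 (4.73%) with more in the oviduct and 30 (7.09%) with more in the uterus. DESeq2 called 1 gene, Tmcc2 (adjusted p = 0.00245). Leaving out 1 library at a time gave 18, 19, 5 and 4 calls, and Malat1, Tmcc2 and Ppp1r15a were the 3 genes called every time. Tmcc2 had a log2 fold change of 3.56 here (SE 0.41, edgeR adjusted p = 2.7e-15), and Ppp1r15a, a stress-response phosphatase subunit, with 28, 34, 3 and 1 UMIs, of 3.40 (SE 0.63, edgeR adjusted p = 1.21e-05). Malat1 had 495, 583, 191 and 51 UMIs and a log2 fold change of 1.76 (SE 0.19), and 2 barcodes held 52.3 and 57.0% of its oviduct UMIs. For Ppp1r15a, 2 barcodes held 57.1 and 61.8% of the oviduct UMIs, and 10 of 122 and 7 of 76 oviduct barcodes had any. The other called barcodes differed in the same direction for both genes. Ppp1r15a stood there at 2.33 and 2.99 per 10000 UMIs for the oviduct, against 0.821 and 1.21 for the uterus. Malat1 stood there at 179.1 and 179.6 against 133.4 and 117.3, so neither difference was particular to the haemoglobin-rich barcodes.

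Of the erythroid lists, 7 genes passed under 1000 genes with more in the oviduct, among them Tfrc, Cd47, Slc4a1, Xpo7, Rsad2 and Car2, and none with more in the uterus, all 7 with an adjusted p of 0.988 in DESeq2. They were 1 of 5 haem, 1 of 4 iron, 2 of 7 membrane, 2 of 18 late maturation, 1 of 7 metabolism and 0 of 2 proliferation genes tested, beside 4.73% of all genes. Tfrc had 16, 10, 0 and 0 UMIs by library. It thus met the filter on low counts through the oviduct libraries alone, so its place among the iron genes is no support of its own. Set against 3 counts over both uterine libraries, the Tfrc level in the oviduct was 5.32-fold per UMI, but 1.84-fold without uterus replicate 1 and 3.48-fold without uterus replicate 2. Slfn14, an endoribonuclease known from reticulocytes, had 13 and 12 against 0 and 0. By the same measure that was 5.12-fold, 1.77-fold without uterus replicate 1 and 3.34-fold without uterus replicate 2. A single barcode held 8 of the 16 and 6 of the 10 Tfrc UMIs, and 8 of the 13 and 8 of the 12 Slfn14 UMIs. The limit of 3 counts takes each UMI as independent, which these are not, so the folds are no lower bound.

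Under 1000 genes, the 2 barcodes with the most Xpo7 held 73.8 and 61.5% of its UMIs in the oviduct libraries. For Rsad2, the interferon-induced radical SAM enzyme, that share was 17.3 and 18.0%. Per 10000 of all UMIs Rsad2 stood at 2.24 and 3.08 for the oviduct, against 2.16 and 1.04 for the uterus. On that scale oviduct replicate 1 lay close to uterus replicate 1. Tmcc2 was seen in 5.74 and 5.26% of the oviduct barcodes under 1000 genes and in 5.49 and 4.88% of the uterine ones, so the share of barcodes was much the same, but for the oviduct 1 barcode held 61 of 92 UMIs and another 34 of 63. The 2 barcodes with the most Tmcc2 held 87.0 and 84.1% of it. Most of the Tmcc2 RNA behind the call thus came from 2 barcodes in each oviduct library; the fit without them was not run.

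Slfn14 had a UMI in 5 of 126 haemoglobin-rich barcodes of oviduct replicate 1 and in 3 of 86 of oviduct replicate 2, and in 0 of 95 and 0 of 43 in the uterus, which allows a share of barcodes with a UMI of up to 3.16 and 6.98%. The oviduct shares, 3.97 and 3.49%, lie near these limits, and barcodes that express the gene without a captured UMI are not counted. In the other called barcodes it was seen in 5, 3, 1 and 1. The 8 haemoglobin-rich barcodes with Slfn14 had 1266 to 14522 UMIs (median 8865), 171 to 813 genes (median 432) and 21.9 to 94.5% haemoglobin. Hbb-bt made up a median of 13.1% of their beta globin. They held 87 of the 92 and 62 of the 63 oviduct Tmcc2 UMIs, 14 of 16 and 8 of 10 of Tfrc, and 265 of 495 and 254 of 583 of Malat1.

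The one with the most genes, in oviduct replicate 1, had 12490 UMIs, 813 genes and 77.5% haemoglobin, with 61 UMIs of Tmcc2, 99 of Malat1, 40 of Bpgm, 28 of Xpo7 (an exportin active as red cell nuclei condense), 23 of Slc4a1, 13 of Alas2, 8 of Slfn14 and 3 of Tfrc. A barcode of oviduct replicate 2 with 13595 UMIs, 667 genes and 80.3% haemoglobin was much like it, with 34, 132, 41, 14, 23, 9, 8 and 6 UMIs of the same genes in the same order. Their Hbb-bt shares, 16.2 and 16.3%, were the highest of their libraries among the 280 barcodes above. These barcodes were singled out after their values were seen.

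The genes higher in the uterus under 1000 genes were mainly those of ribosomal proteins, with 25 of 30. Of 76 tested, these 25 passed with more in the uterus and 0 with more in the oviduct, and their median log2 fold change was -0.61, against 0.04 over all 423 genes. Rpl32 had 84, 93, 158 and 82 UMIs by library and was seen in 45.9 and 50% against 76.9 and 78.0% of the barcodes. Rps19 had 91 and 74 against 155 and 63. The other called barcodes differed in the same direction for both genes. Rpl32 stood there at 51.2 and 49.8 per 10000 UMIs for the oviduct, against 63.5 and 65.4 for the uterus. Rps19 stood there at 48.0 and 45.0 against 59.6 and 61.8. No ribosomal protein gene was called in every fit that left out a library.

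The bound on free RNA was higher for the uterus as well. Under 1000 genes it was at most 3.86, 3.48, 8.94 and 6.34% of the UMIs by library. For Rpl32 the free RNA could give up to 2.49, 2.45, 8.80 and 6.35 per 10000 UMIs, above the 1.26, 2.24, 3.63 and 3.56 measured. For Malat1 it could give up to 6.11, 3.21, 3.79 and 2.59, where 7.40, 14.0, 4.39 and 2.21 were measured, and for Tmcc2 up to 0.00117 to 0.00219, where 1.38, 1.52, 0.161 and 0.0867 were measured. The part of free RNA in the organ differences was not tested.

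**Figure D5:**
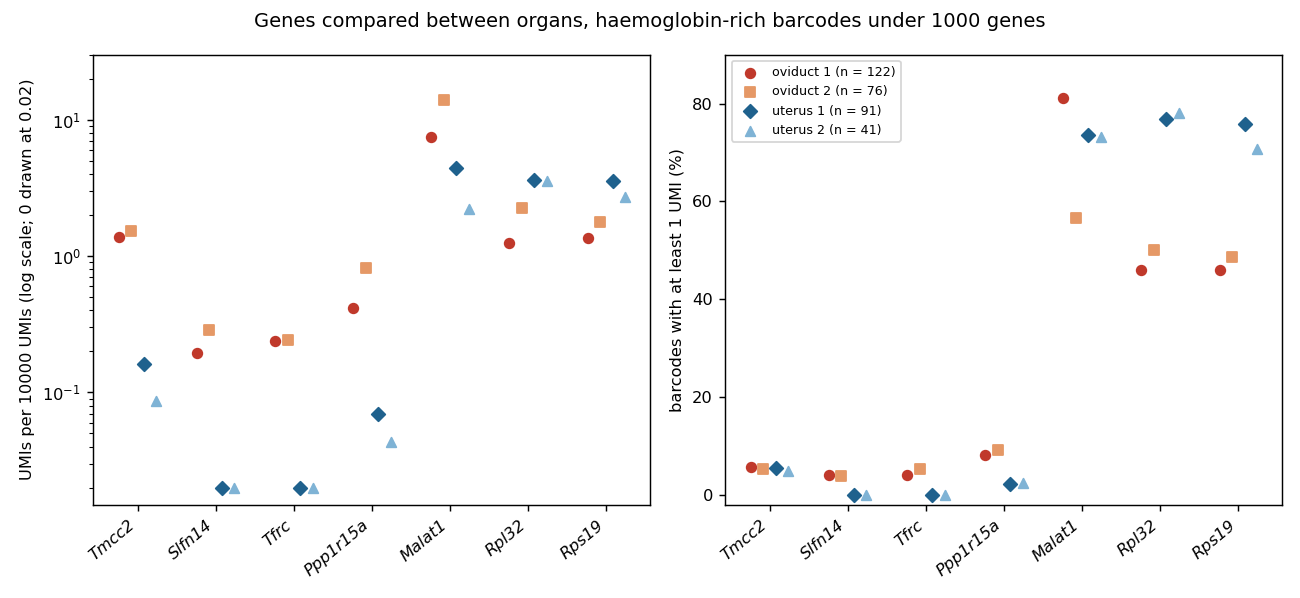
Genes compared between the organs in haemoglobin-rich barcodes under 1000 genes, with 1 symbol per library (n = 122, 76, 91 and 41 barcodes): on the left the UMIs per 10000 UMIs on a log scale, on the right the percent of barcodes with at least 1 UMI. Tmcc2 lies higher in both oviduct libraries on the left but at 4.88 to 5.74% in all 4 on the right, while Rpl32 and Rps19 lie lower in the oviduct in both panels.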

How the data were processed

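Oviduct and uterus of CD1 neonates were measured by single-cell RNA sequencing, with 2 libraries per organ. The deposited values are UMI counts per gene and barcode for 31053 genes, taken as deposited without scaling. The authors made the matrices, per the file headers, with Cell Ranger, version 6.0.1 for called barcodes and 4 for all barcodes. The submitters' processing notes name the build mm10 and Seurat 4.2.3, without saying for which step. How reads with several matches were treated is not given in the sources used here. The libraries held 114419939, 82213345, 61117726 and 70172415 UMIs, and the haemoglobin-rich barcodes 4007 to 5016 each (median by library).

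The members, gene lists, named genes and comparisons were chosen with earlier results of these data known. No doublet caller was run. Named genes are all globin genes, the 4 of highest level in each erythroid list among those with at least 20 UMIs, the 10 largest ratios outside the lists and, in the organ test, up to 5 called genes per direction. Barcodes, genes or lists added beside these were chosen after their values were seen. Two-sided exact permutation tests compared single values over libraries. Summed counts were compared between organs with edgeR 4.0.16 (TMM scaling, filterByExpr, quasi-likelihood test, organ as the single term) in R 4.3.3, with Benjamini-Hochberg adjustment over all genes tested and DESeq2 1.42.0 as an alternative. Replicate libraries varied beyond counting noise (chi-square per degree of freedom 18.5 in the oviduct and 4.91 in the uterus). Replicates are libraries of pooled animals. Without a block, edgeR's p-values set the organ difference against the spread between libraries of the same organ. That spread holds differences between pools and anything else that differs between libraries, which cannot be told apart. The series' design says that both organs came from the same neonates but not which replicate number is which pool, so fits with and without the number as a block are given; the correlation of same-numbered deviations over 1418 genes was -0.25. Intervals and limits from counts of 0 (3 counts) cover counting error only. Promoters are RefSeq's (GRCm38.p6) and loci GENCODE M21's. Ahsp and Hbb-bh0 were not analysed here, and a few genes that meet the naming rule are counted in their lists but not reported by name.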

Additional observations from a re-analysis of the deposited data

Results flagged for a closer look

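Haemoglobin-rich droplets were also found among the barcodes that the authors' software did not take for cells and that none of the comparisons above used. With the same rule (at least 20% adult globin, at most 15% mt- UMIs) and more than 100 UMIs, 22 such barcodes lay in oviduct replicate 1, 27 in oviduct replicate 2, 5 in uterus replicate 1 and 6 in uterus replicate 2, more in each library than the limit of 3 counts. Of these 60, 9 had at least 50% haemoglobin and 0 had at least 80%. None had more than 475 UMIs, below the lowest called haemoglobin-rich barcode of 501 UMIs. They were noted because they lie in data outside the main measurement, and no control samples exist for them.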

How the results depend on the processing

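All differences are oviduct minus uterus. None of the single values was significant under any setting (the smallest p the design allows is 0.33), so their signs carry little. The share of called barcodes (0.271 percentage points) was -0.0483 within replicate 1 under the replicate block and 0.590 within replicate 2, and -0.220 to 0.762 leaving out 1 library. UMIs per barcode (358) were -174 with haemoglobin of at least 50%, -6792 with at least 500 genes and -176 under 1000 genes, and -66.5 to 783 leaving out 1 library. The Hbb-bt share (0.0294 points) was -0.0776 with haemoglobin of at least 10%, -0.0246 with mt- of at most 5% and -0.335 with at least 500 genes, and -0.571 to 0.630 leaving out 1 library; the alpha share (1.46) was -0.295 to 3.22 and the embryonic level (-1.40 per 1000000) -3.58 to 0.775. Subtracting free RNA left the sign of the Hbb-bt, alpha and embryonic differences as it was. The 3 genes called between organs became 10 with the replicate block, 0 with crossed replicate numbers (chosen after the correlation of same-numbered libraries was seen), 1 with DESeq2, 4 with DESeq2's size factors in edgeR, 22 without a filter on low counts, 6 with haemoglobin and mt- genes kept, 18 with haemoglobin of at least 50%, 2 of at least 80%, 50 under 1000 genes, and 0 to 48 leaving out 1 library; without oviduct replicate 2, where edgeR called 0, 112 genes had an unadjusted p under 0.05. A single library left in an organ was taken to vary like those of the other organ. The settings at 80%, under 1000 genes and with crossed numbers were added after the data were seen; the cause of these changes was not tested. Depth limits Hba-x, Hbb-bh1 and Hbb-bh2, each at 0, to 4.65 to 13.1 per 1000000 adult globin UMIs by library.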
